A study of Mus musculus with 6 samples.

Results

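The 10 genes described here are markers of arterial and venous identity, taken by name as a list of vessel genes out of the 37991 genes counted in RNA-seq of bone endothelial cells (BECs). They comprise the ephrin ligands Efnb2, Efnb1 and Efna1, the ephrin receptor Ephb4, the venous transcription factor Nr2f2, the gap junction proteins Gja1, Gja4 and Gja5, the netrin receptor Unc5b and the surface protein Ly6a. RNA was measured in 6 libraries, 3 from female and 3 from male c57/Bl6 mice, all 12 weeks old, untreated as far as the labels say and carrying no named allele. The labels give the BECs as freshly isolated from the tibia through endomucin, a sialoglycoprotein of vein and capillary endothelium, whereas the isolation protocol in the study's methods names the femur too. The methods also state that the libraries of each set were picked for RNA quality. The study examined how sex hormones act on the vessels of bone, and the comparison made here asked whether the identity genes differed between BECs of the sexes. The labels do not say whether a library came from a single animal, so all p-values below measure the spread between these libraries.

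Arteries and veins differ in the surface proteins of their endothelium. Endothelial cells of arteries display ephrin B2, the product of Efnb2, which signals into cells bearing its receptor EphB4, the product of Ephb4, and cells of veins carry more EphB4. Notch signalling promotes the arterial program, whereas Nr2f2, also called COUP-TFII, restrains it in veins, and the connexins encoded by Gja4 and Gja5 couple the endothelial cells of arteries.

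Total counts lay between 47678806 and 58325745 per library, so that 3 counts, the smallest level taken as detectable, corresponded to between 0.0477 and 0.0639 CPM, counts scaled to library size with edgeR's TMM factors. The 20 endothelial markers were all detected, but they made up only 0.0241% to 0.0601% of the counts of a library, against 2.07% to 4.46% for 14 neutrophil markers. Emcn, which encodes the endomucin used for the isolation, was at 8.68, 5.35 and 10.5 CPM in female replicates 1 to 3 and at 4.21, 3.09 and 6.73 CPM in male replicates 1 to 3. Its levels overlapped between the sexes, as did those of Cdh5, the endothelial cadherin, which lay between 15.8 and 32.6 CPM in females and between 6.50 and 16.1 CPM in males. Male replicate 3 stood apart from the other libraries on the second principal component of the 500 most variable genes, at -22.97 against 0.55 to 8.03. Gene positions given below are those of GRCm39, used only to identify each gene, and promoter windows are those of GRCm38.p6.

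None of the identity genes was called between the sexes. Of the 10 genes, all passed the filter on low counts and 0 were called at an adjusted p under 0.05 by edgeR (quasi-likelihood test, Benjamini-Hochberg adjustment over all genes), against 0.0411% of the 19480 genes tested, which is 8 genes. At an unadjusted p under 0.05 edgeR likewise gave 0 of the 10, against 9.79% of all genes. DESeq2 called 0 of the 10 after adjustment, where it called 2.08% of 17252 genes. It gave 1 of them, Ephb4, an unadjusted p under 0.05 and a lower level in males, as it gave 3.78% of 26997 genes. The libraries of the sexes overlapped for every member, whereas they were separate for 14.5% of all genes. Log2 fold changes of males over females were negative for 9 of the 10 members with a median of -0.38, and for 9781 of all 19480 genes with a median of -0.00, but only 2 of the 10 were negative when libraries were scaled to their summed endothelial marker counts, a scaling that moved the median of all genes to 0.74. Without female replicate 2 the median of the members was -0.65, and without female replicate 3 it was -0.21 with 7 of the 10 negative. With either scaling Ly6a was the single member above the median of all genes.

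**Figure D1:**
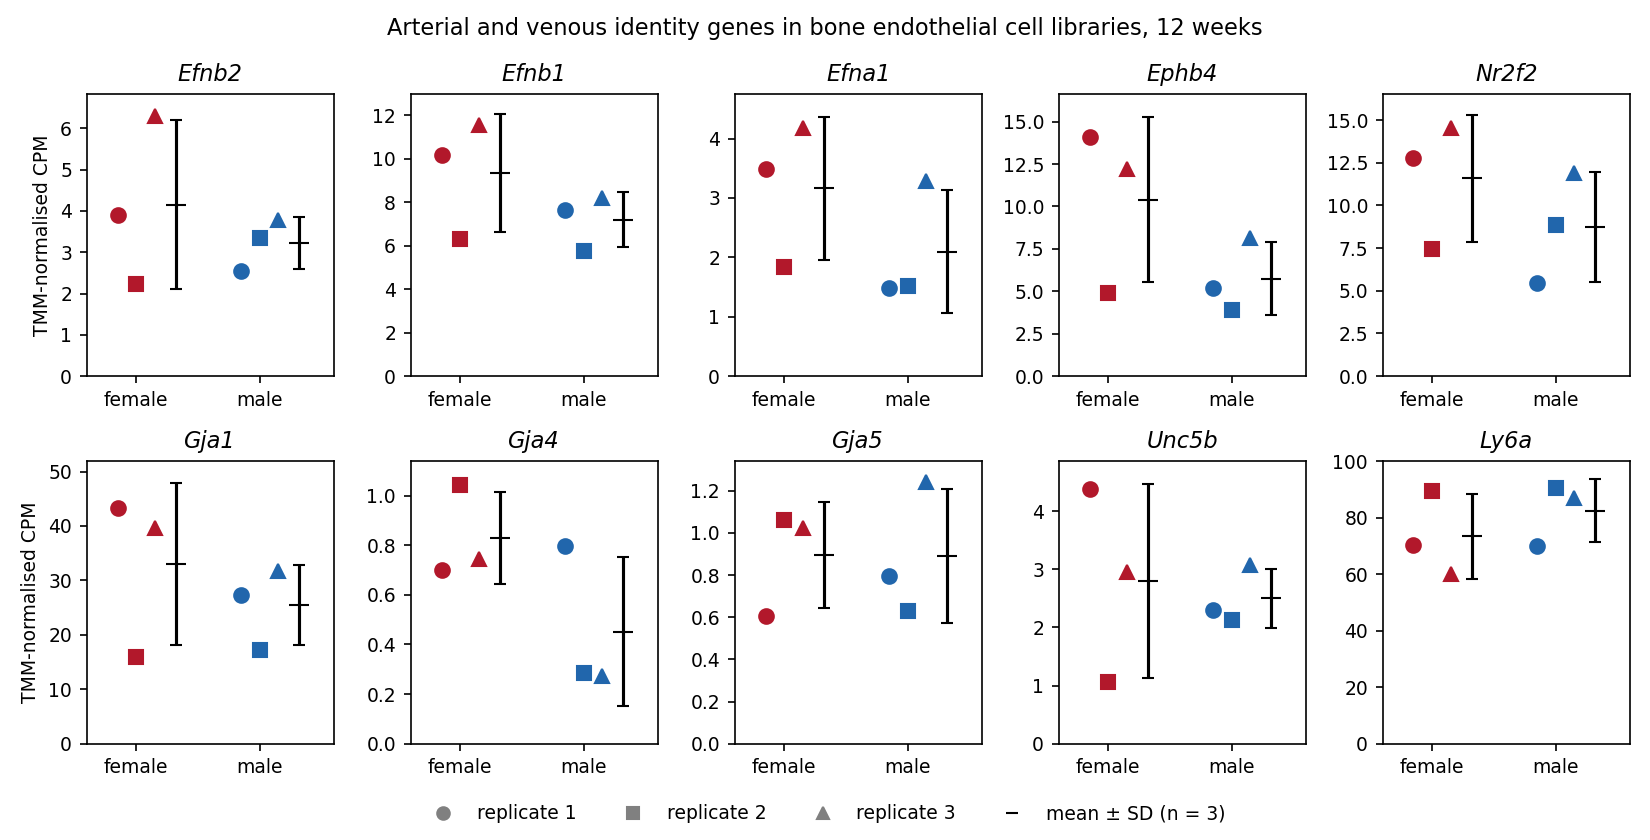
Levels of the 10 genes in each library, as TMM-normalised CPM on a linear axis from 0, females left and males right, with the mean and SD of 3 libraries beside the points. The sexes overlap in every panel, and female replicates 1 and 3 (circle and triangle) are the highest libraries for 6 of the genes.

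The promoters of the ligand, its receptor and the venous transcription factor are shown because Efnb2, Ephb4 and Nr2f2 define the arterial and venous programs and were highest in the same libraries, female replicates 1 and 3. Each is the window from 250 bases before to 50 bases after the start of the gene in RefSeq on GRCm38.p6, written 5′ to 3′ on the strand of the gene. Capitals mark GGGCGG, the core of the GC box, or TATAAA, the TATA box, on either strand.
Efnb2, chr8:8661193-8661492, minus strand: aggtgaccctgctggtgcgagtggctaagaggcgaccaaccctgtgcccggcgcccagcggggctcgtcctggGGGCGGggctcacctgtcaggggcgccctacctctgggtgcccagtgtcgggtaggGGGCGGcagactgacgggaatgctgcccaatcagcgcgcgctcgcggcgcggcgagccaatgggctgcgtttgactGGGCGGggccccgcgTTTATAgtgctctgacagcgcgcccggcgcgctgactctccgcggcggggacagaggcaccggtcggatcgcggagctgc
Ephb4, chr5:137349859-137350158, plus strand: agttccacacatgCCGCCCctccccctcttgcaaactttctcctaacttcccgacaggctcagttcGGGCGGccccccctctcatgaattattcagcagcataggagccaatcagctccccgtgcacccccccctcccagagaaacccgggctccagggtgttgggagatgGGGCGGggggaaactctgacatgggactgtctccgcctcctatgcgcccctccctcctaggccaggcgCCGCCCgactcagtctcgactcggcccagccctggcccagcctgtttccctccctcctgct
Nr2f2, chr7:70366697-70366996, minus strand: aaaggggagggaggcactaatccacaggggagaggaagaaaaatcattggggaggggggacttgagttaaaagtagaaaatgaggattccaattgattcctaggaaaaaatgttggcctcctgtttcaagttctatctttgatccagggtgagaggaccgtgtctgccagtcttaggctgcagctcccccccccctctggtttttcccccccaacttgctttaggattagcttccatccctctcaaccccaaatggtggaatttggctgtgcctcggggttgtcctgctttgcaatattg

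The Efnb2 window held 3 copies of GGGCGG and 1 of TATAAA, the latter read as TTTATA on the strand shown, with 72.3% G and C. Ephb4 held 4 copies of GGGCGG on both strands with 64.7% G and C. The Nr2f2 window had neither motif and 49.7% G and C. Of all 32851 promoter windows of this length, 35.7% held GGGCGG and 13.6% held TATAAA. Searched in the same way on both strands, TGGGAA, the core bound by the Notch effector RBPJ, was in 25.6% of all windows, in 2 copies in that of Efnb1 and in none of the 3 shown. AGGTCA, the half-site of nuclear receptors such as the Nr2f2 product, was in 16.3% of all windows and in none of those of the members. None of these motifs shares its letters with another on either strand, windows were found for 9 of the 10 members, with Ly6a having no entry, and a match is a description of letters and not a binding site.

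Efnb2 (ENSMUSG00000001300, chr8:8667226-8711249, minus strand) encodes the ligand that marks arterial endothelium. It was counted at 246, 118 and 296 reads in female replicates 1 to 3, or 3.91, 2.23 and 6.31 CPM, and at 134, 165 and 179 reads in male replicates 1 to 3, or 2.54, 3.35 and 3.77 CPM. The highest and the lowest library were both female, and the 3 male libraries lay between them. The mean was 4.15 ± 2.05 CPM in females and 3.22 ± 0.625 CPM in males (SD, n = 3 each). The log2 fold change of males over females was -0.36 with a 95% interval from -1.17 to 0.44 (edgeR adjusted p = 0.789). This sign rested on female replicate 3, without which the log2 fold change was 0.07.

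Efnb1 (ENSMUSG00000031217, chrX:98179680-98205454, plus strand), a B-class ephrin also made by stromal and bone-forming cells, was at 10.2, 6.30 and 11.5 CPM in females and at 7.63, 5.76 and 8.18 CPM in males. Female replicate 2 fell among the male libraries, below male replicates 1 and 3. The means were 9.35 ± 2.72 and 7.19 ± 1.27 CPM (SD, n = 3 each), a log2 fold change of -0.38 (interval -0.93 to 0.18, edgeR adjusted p = 0.662). Efna1 (ENSMUSG00000027954, chr3:89179037-89188449, minus strand), an A-class ephrin anchored to the membrane by a lipid and induced by inflammatory cytokines in endothelium, was at 3.48, 1.84 and 4.18 CPM in females and at 1.48, 1.52 and 3.29 CPM in males. Male replicates 1 and 2 were the lowest libraries, and male replicate 3 lay close to female replicate 1. Its log2 fold change was -0.59 (interval -1.503 to 0.31, edgeR adjusted p = 0.682).

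Ephb4 (ENSMUSG00000029710, chr5:137348274-137376931, plus strand) encodes the receptor tyrosine kinase that binds ephrin B2 and marks veins. Its reads numbered 888, 258 and 573 in females and 275, 192 and 386 in males, which is 14.1, 4.88 and 12.2 CPM against 5.22, 3.90 and 8.14 CPM. Female replicates 1 and 3 stood above all males, while female replicate 2 was below male replicates 1 and 3. The mean was 10.4 ± 4.88 CPM in females and 5.75 ± 2.17 CPM in males (SD, n = 3 each). Males were at a log2 fold change of -0.86 (SE 0.39, interval -1.72 to 0.01), which did not pass (edgeR adjusted p = 0.511). It passed in DESeq2 with the replicate number as a block, an alternative chosen after seeing the data (log2 fold change -0.78, adjusted p = 0.0403), but not in edgeR with that block (-0.79, adjusted p = 0.110). Leaving out a library in turn, the log2 fold change ran from -1.196 without female replicate 2, where the unadjusted edgeR p was under 0.05, to -0.57 without female replicate 1, and the adjusted p from 0.265 to 1.000.

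Nr2f2 (ENSMUSG00000030551, chr7:70001692-70016519, minus strand) encodes the nuclear receptor that maintains vein identity. Its levels were 12.8, 7.44 and 14.5 CPM in females and 5.49, 8.83 and 11.9 CPM in males, from 289 to 802 reads per library. Male replicate 1 was the lowest library, and male replicates 2 and 3 lay between the lowest and the other female libraries. The means were 11.6 ± 3.70 and 8.74 ± 3.20 CPM (SD, n = 3 each). The log2 fold change of -0.41 had an interval from -1.09 to 0.28 (edgeR adjusted p = 0.712). When male replicate 3 was left out, the unadjusted edgeR p was under 0.05 for Nr2f2, Efna1 and Ephb4, all with lower levels in males, beside 7.78% of all genes in that direction. Without female replicate 2 this held for Ephb4, Efnb1 and Gja1, beside 4.39%, and without male replicate 1 Gja4 alone, beside 4.71%. No adjusted p of a member fell under 0.05 in these fits.

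Gja1 (ENSMUSG00000050953, chr10:56253241-56278609, plus strand) encodes connexin 43, a gap junction protein of endothelium, smooth muscle, osteoblasts and marrow stroma. It was at 43.4, 15.9 and 39.6 CPM in females and at 27.4, 17.3 and 31.7 CPM in males. All 3 male libraries lay inside the female range, whose ends were female replicates 1 and 2. The means of 33.0 ± 14.9 and 25.5 ± 7.42 CPM (SD, n = 3 each) differed by a log2 fold change of -0.37 (interval -1.19 to 0.45, edgeR adjusted p = 0.783).

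Gja4 (ENSMUSG00000050234, chr4:127205214-127207851, minus strand), which encodes connexin 37 of arterial endothelium, was counted at only 44, 55 and 35 reads in females and 42, 14 and 13 reads in males. These are 0.700, 1.04 and 0.746 CPM in females and 0.797, 0.284 and 0.274 CPM in males. Male replicates 2 and 3 were below every other library, and male replicate 1 was above female replicates 1 and 3. The 95% Poisson intervals, which cover counting error only, were 0.155 to 0.477 CPM in male replicate 2 and 0.146 to 0.469 CPM in male replicate 3, separate from the 0.575 to 1.08 CPM of male replicate 1. The log2 fold change of -0.87 had the widest interval of the members, from -2.07 to 0.34 (edgeR adjusted p = 0.640).

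Gja5 (ENSMUSG00000057123, chr3:96812009-96984732, plus strand), which encodes connexin 40 of arterial endothelium, had between 31 and 59 reads per library. It was at 0.604, 1.06 and 1.02 CPM in females and at 0.797, 0.629 and 1.24 CPM in males. The lowest library was female and the highest male, and the means of 0.895 ± 0.253 and 0.890 ± 0.318 CPM (SD, n = 3 each) were nearly equal. The log2 fold change was -0.01 with an interval from -0.97 to 0.96 (edgeR adjusted p = 1.000), so these libraries did not exclude a difference of up to about that size in either direction. An exon of Gpr89 on the opposite strand shares 165 bases with Gja5, and whether reads were counted by strand is not given in the sources used here.

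Unc5b (ENSMUSG00000020099, chr10:60598372-60667396, minus strand) encodes a netrin receptor of arterial and sprouting endothelium. Its levels were 4.37, 1.06 and 2.96 CPM in females and 2.30, 2.13 and 3.08 CPM in males. The female libraries spanned 4.13-fold, the widest within-sex range of any member, and held all 3 males. The log2 fold change was -0.16 (interval -1.15 to 0.82, edgeR adjusted p = 0.936) and 0.32 without female replicate 1.

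Ly6a (ENSMUSG00000075602, chr15:74863840-74869880, minus strand) encodes Sca-1, a lipid-anchored protein of arterial and arteriolar endothelium that haematopoietic stem cells and other marrow cells also carry. It was at 70.4, 89.5 and 60.1 CPM in females and at 69.8, 90.4 and 87.1 CPM in males. Female replicate 2 and male replicate 2 were nearly equal at the top. The means were 73.3 ± 14.9 and 82.4 ± 11.1 CPM (SD, n = 3 each), and the log2 fold change of 0.17 was the only positive value among the members (interval -0.19 to 0.53, edgeR adjusted p = 0.781). Ly6a lies in a family of closely related genes, so the division of its reads among them is uncertain.

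**Figure D2:**
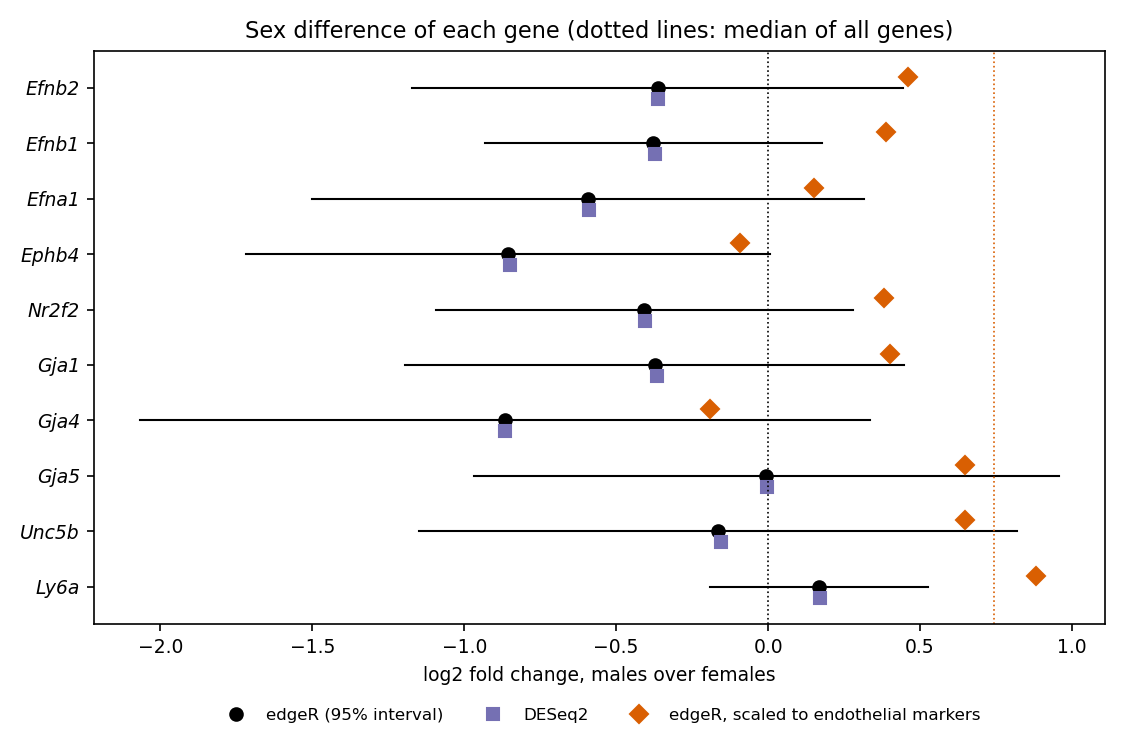
Log2 fold change of males over females for each gene by edgeR with its 95% interval (circles, bars), by DESeq2 (squares) and by edgeR after scaling each library to its endothelial marker counts (diamonds). Dotted lines are the median of all genes, at -0.00 for whole-library scaling and 0.74 for endothelial scaling, and every edgeR interval spans 0, while endothelial scaling turns 7 of the signs.

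Levels of different genes were compared per kilobase of exon (RPKM, over the union of each gene's exons). Ly6a had the highest mean, at 16.8 RPKM, followed by Gja1 at 2.37, Efnb1 at 2.08, Ephb4 at 1.61, Nr2f2 at 1.08, Efna1 at 0.766, Efnb2 at 0.509, Unc5b at 0.421, Gja4 at 0.297 and Gja5 at 0.150 RPKM. Only Ly6a was separate from the gene next to it in this order in range, and all other neighbours overlapped, though Nr2f2 was above Efna1 in 6 of 6 libraries. Gja1 exceeded Efnb1 in 4 of 6 libraries. The arterial ligand Efnb2 ranged from 0.308 to 0.871 RPKM and the venous receptor Ephb4 from 0.776 to 2.81 RPKM. With the length of the canonical transcript in place of all exons, Gja1 was at 6.22 RPKM and Nr2f2, at 2.41, was above Ephb4, at 1.85 RPKM. Efna1 was then at 1.78 RPKM, and Ephb4 was above it in only 2 of 6 libraries, against all 6 with the longest transcript. The arterial connexins Gja4 and Gja5 stayed the lowest members with every length tried, and by mean CPM they stood at percentiles 12.5 and 16.1 of all genes tested, with Nr2f2 at 48.5 and Ly6a at 87.8.

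**Figure D3:**
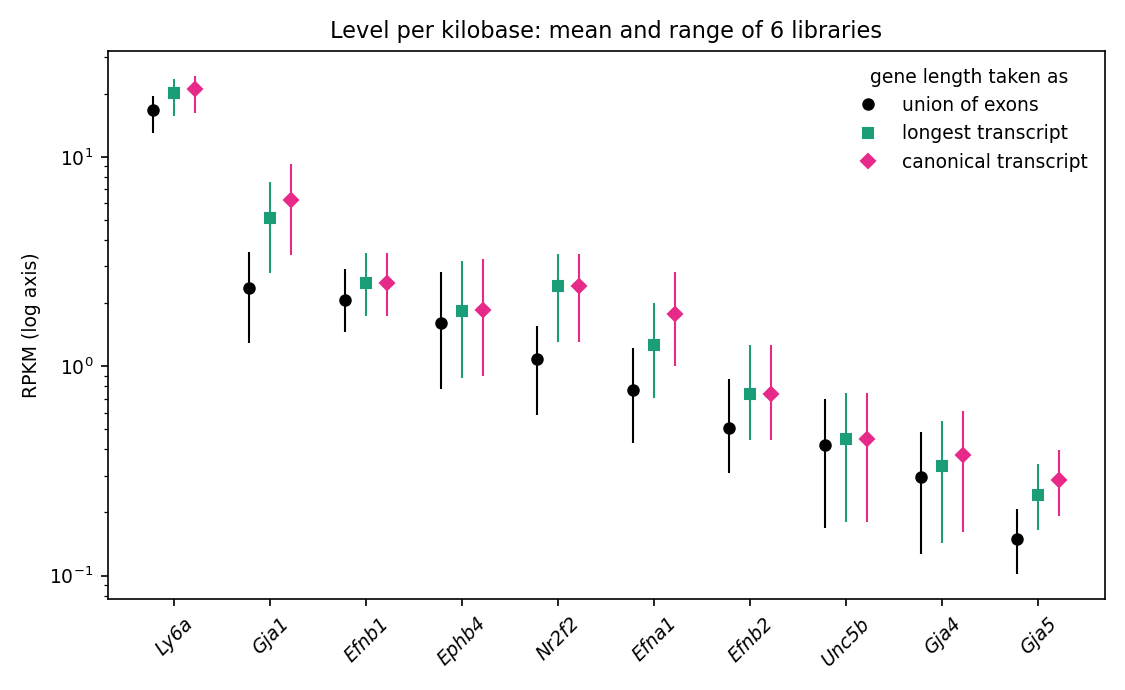
Mean level per kilobase (RPKM, log axis) of each gene over 6 libraries, with lines from the lowest to the highest library, for 3 choices of gene length. Ly6a lies above all others at 16.8 RPKM by the union of exons, Gja4 and Gja5 lie lowest, and the order of Ephb4 and Nr2f2 depends on the length used.

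Most members varied widely between libraries. From the lowest to the highest library the median ratio was 2.77-fold for the members and 1.63-fold for all genes tested. The ratio was 4.13-fold for Unc5b, 3.80-fold for Gja4, which had as few as 13 reads in a library, 3.62-fold for Ephb4 and only 1.504-fold for Ly6a. Gja1, with at least 840 reads in every library, ranged 2.73-fold. Female replicates 1 and 3 were the highest libraries for 6 of the 10 members (Efnb2, Efnb1, Efna1, Ephb4, Nr2f2 and Gja1), a pattern noticed after the values were seen, and for 7.82% of all genes.

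Summed marker levels moved with the same libraries. Endothelial markers summed to 558, 402 and 590 CPM in females and to 316, 241 and 372 CPM in males, with no overlap. All 20 had negative log2 fold changes with whole-library scaling, against 13 of 20 when scaled to their own sum. With either scaling 0 of the 20 stood above the median of all genes. For 14 of the 20 the unadjusted edgeR p was under 0.05, where 4.76% of all genes were lower in males at that level, and 0 were called after adjustment. Without female replicate 1 or without female replicate 3 this count was 9 of the 20. With all libraries DESeq2 called 8 of the 20, beside 2.08% of all genes in either direction. Stromal markers, of which Cxcl12 was the most abundant, summed to 2991, 1512 and 3137 CPM in females and to 1854, 1260 and 2424 CPM in males, and female replicates 1 and 3 were again highest.

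Mural markers of smooth muscle and pericytes summed to 132, 73.0 and 148 CPM in females and to 95.3, 58.6 and 93.5 CPM in males, with Acta2, Tagln and Myh11 all detected. Neutrophil markers, led by S100a8 and S100a9, were at sums of 19248 to 23531 CPM in females and 32661 to 44571 CPM in males without overlap. Of the 14, 10 had an unadjusted edgeR p under 0.05 and higher levels in males, as 5.03% of all genes had. After adjustment edgeR called 0 and DESeq2 called 9, beside 0.0411% and 2.08% of all genes in either direction. Macrophage markers were higher in females without overlap, at sums of 4878 to 5234 against 3094 to 4165 CPM. All 10 had an unadjusted edgeR p under 0.05 and lower levels in males, beside 4.76% of all genes. This count was 5 without male replicate 2, beside 2.13%. It was 0 when scaled to endothelial markers, where only 0.226% of all genes were lower at that level. With that scaling 0 of the 10 stood above the 0.74 median of all genes. After adjustment edgeR called 0 and DESeq2 3, beside 0.0411% and 2.08% of all genes in either direction. Erythroid markers were at 12147 to 17460 CPM in females and at 18466 to 27147 CPM in males. The sums of osteoblast, B cell, T and NK cell, megakaryocyte and progenitor markers overlapped between the sexes, and no marker listed was at 0 in all libraries. The part these cells had in the levels of the members was not tested, and in bulk RNA fewer cells of a type and less RNA per cell cannot be told apart.

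**Figure D4:**
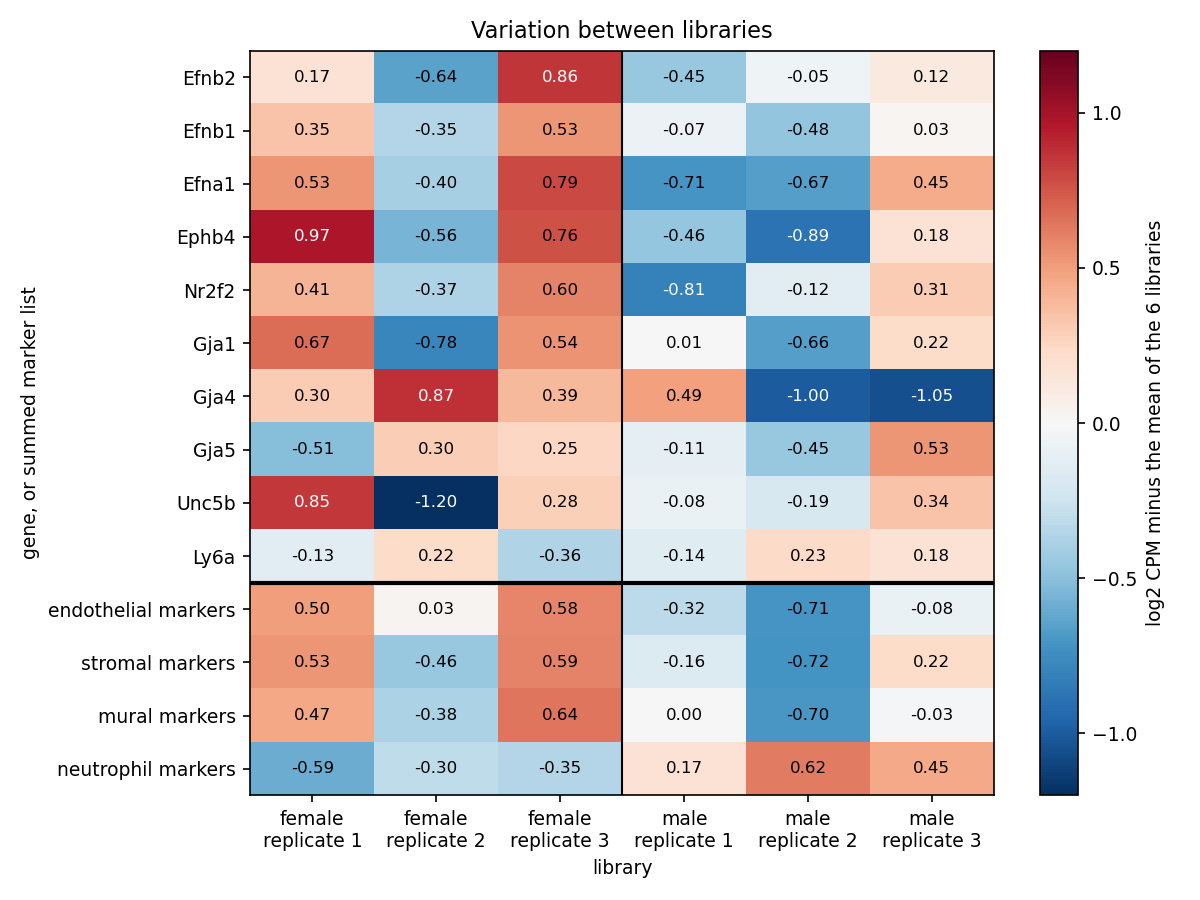
Log2 CPM of each gene and of 4 summed marker lists in each library, less its mean over the 6 libraries, with females left of the vertical line and males right. Ephb4, Efnb1, Efna1, Gja1 and the endothelial, stromal and mural sums share high values in female replicates 1 and 3 and a low value in male replicate 2.

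Likeness of pattern was measured as the root mean square difference of centred log2 CPM over the 6 libraries, where 0 is an identical pattern, and is given as a description, since all patterns come from the same libraries. Efnb1 differed from the mural sum by 0.121, from the stromal sum by 0.161 and from the endothelial sum by 0.223. Gja1 was likewise closer to the stromal sum, at 0.163, than to the endothelial sum, at 0.383. Ephb4 differed from these sums by 0.244 and 0.347. Ly6a differed from the neutrophil sum by 0.367 and from the endothelial sum by 0.620, both more than the 0.222 by which Ly6a itself varied about its mean. Gja4 was 0.640 or more from each of the 4 sums.

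Among the 45 pairs of members, the closest were Efnb1 with Gja1 and the arterial ligand Efnb2 with the venous factor Nr2f2, both at 0.247, followed by Efna1 with Nr2f2, at 0.251. The farthest pair was Gja4 and Unc5b, at 1.12. Of 12675 protein-coding genes at a mean of at least 1 CPM and with reads in every library, Prx, a scaffold protein of myelinating cells, was nearest to Efnb2 at 0.0867, followed by Evc, a protein of the cilium, at 0.108 and the adhesion protein Nectin3 at 0.131. Nearest to Nr2f2 were the forkhead factor Foxp2 at 0.135, Fam110d at 0.139 and the aldo-keto reductase Akr1c14 at 0.157. With 0.5 CPM added before the logarithm, Prx, Evc and Fam110d were again among the 3 nearest, and Nectin3, Foxp2 and Akr1c14 were not.

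As a share of the summed endothelial marker counts of the same library, Efnb1 was 1.83%, 1.57% and 1.96% in females and 2.41%, 2.40% and 2.20% in males. It was the only member whose sexes did not overlap on this scale, where 43.6% of all genes were separate with higher shares in males, and its log2 fold change of 0.39 with endothelial scaling was below the 0.74 median of all genes. Ly6a was 12.6%, 22.3% and 10.2% of endothelial marker counts in females and 22.05%, 37.6% and 23.4% in males, with male replicate 1 just below female replicate 2. With this scaling edgeR called Ly6a at a log2 fold change of 0.88 (adjusted p = 0.040), but it also called 4797 of all genes. The shares of the other 8 members overlapped between the sexes, including Efnb2 at 0.775% ± 0.264 in females and 1.07% ± 0.298 in males and Ephb4 at 1.94% ± 0.668 and 1.82% ± 0.320 (SD, n = 3 each).

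The balance of arterial to venous genes within a library was taken as a log2 ratio of counts, with 0.5 added to each count, and was compared between libraries only. Efnb2 to Ephb4 stood at -1.85, -1.13 and -0.95 in females and at -1.03, -0.22 and -1.11 in males. Male replicate 2 had the highest ratio and the other males lay inside the female range, so the mean difference of 0.52 (males minus females) was about the size of the SD within females, 0.48, and males, 0.49. With a library left out it ran from 0.24 (without male replicate 2; 0.25 without female replicate 1) to 0.70 (without female replicate 3). The ratio of Efnb2 to Nr2f2 differed by 0.16 between means of -1.55 ± 0.30 in females and -1.38 ± 0.27 in males (SD, n = 3 each), with overlapping libraries, and by 0.022 (without male replicate 1) to 0.33 (without female replicate 3) with a library left out. Gja4 to Gja1, an arterial connexin against the one shared by many cells, ran from -5.94 to -3.92 in females and from -6.80 to -5.09 in males, and its mean difference of -0.73 ran from -1.15 without male replicate 1 to -0.10 without female replicate 2.

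The wider Eph and ephrin family, 22 genes of which 20 were tested, gave 0 calls by edgeR, with 1 gene in each direction at an unadjusted p under 0.05, which is near the 5.03% and 4.76% of all genes. The count lower in males was 4 of 21 without female replicate 2, beside 4.39% of all genes. It was 3 of 21 without male replicate 3, beside 7.78%, and 1 or 2 without any other library. The count higher in males was 0 to 2 with a library left out. The median log2 fold change was -0.37, and -0.10 without the 4 members, beside -0.00 for all genes, but 0.43 and 0.76 when scaled to endothelial markers, beside 0.74. With whole-library scaling these medians were 0.018 and 0.19 without female replicate 3, and -0.60 and -0.58 without female replicate 2. Epha5, a receptor best known from the nervous system and the most abundant of the family per kilobase (6.08 RPKM), was at 97.5, 119 and 99.9 CPM in females and at 101, 174 and 163 CPM in males, with overlap. Ephb6, a receptor without kinase activity picked out here by its values, was at 3.02, 2.55 and 3.49 CPM in females and at 1.52, 1.40 and 1.48 CPM in males. Its sexes did not overlap, as for 7.29% of all genes in that direction, and its log2 fold change of -1.04 passed in DESeq2 (adjusted p = 0.0388) but not in edgeR (adjusted p = 0.240). Epha8 was at 0 in every library.

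Of 20 connexin genes 8 were tested, and 0 were called by edgeR or DESeq2, beside 0.0411% and 2.08% of all genes. At an unadjusted edgeR p under 0.05 there were likewise 0, beside 9.79%. Without female replicate 1 there were 3, none a member and all higher in males, beside 6.96% of all genes in that direction. Lower in males there was 1 without female replicate 2 and 1 without male replicate 1, beside 4.39% and 4.71%. The 5 that are not members had positive log2 fold changes from 0.03 to 0.63, beside the negative or near-zero values of Gja1, Gja4 and Gja5, but 1 of the 5 was negative without either of female replicates 1 and 2, and without either of male replicates 2 and 3. Their median of 0.41 ran from 0.21 (without male replicate 2) to 0.70 (without female replicate 1) with a library left out. Scaled to endothelial markers, the 5 were at 0.78 to 1.37 with a median of 1.22, against 0.74 for all genes, and edgeR called 3 of them, beside 4776 of all 19480 genes higher in males. Gje1 was the most abundant connexin by union of exons, at 2.90 RPKM, beside Gja1 at 2.37. This order turned with the longest and the canonical transcript, where Gja1 was at 5.12 and 6.22 RPKM and Gje1 stayed at 2.90. Netrin receptors and ligands with their partners numbered 14, of which 11 were tested and 0 called by edgeR. Their median log2 fold change was -0.36, or -0.53 to -0.20 with a library left out. Scaled to endothelial markers it was 0.37, beside 0.74 for all genes. Robo4, an endothelial receptor that binds UNC5B, was at 13.6, 5.88 and 11.4 CPM in females and at 4.44, 3.07 and 6.73 CPM in males. Only male replicate 3 was above the lowest female library, and the log2 fold change was -1.12 (edgeR adjusted p = 0.327, DESeq2 adjusted p = 0.0385). Unc5a was the most abundant of this list, at 2.52 RPKM, and Flrt2, a membrane ligand of UNC5 proteins picked out here by its values, also had an unadjusted edgeR p under 0.05, at a log2 fold change of -1.10.

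Ly6a belongs to a cluster of Ly6 genes and relatives, most of which had positive log2 fold changes. Of 13 tested, 11 were positive with a median of 0.63, and that median was 0.40 without female replicate 3. Scaled to endothelial markers 12 were positive, and with either scaling 11 stood above the median of all genes. By the test, edgeR called 0 of them after adjustment, and 6 had an unadjusted p under 0.05 with higher levels in males, against 5.03% of all genes. These were Ly6c1, Ly6c2, Ly6f, Ly6g, Ly6i and Ly6m, of which Ly6g, the neutrophil surface marker, was at 39.1, 46.9 and 41.4 CPM in females and at 66.7, 87.3 and 71.1 CPM in males. Ly6i was at 17.0, 19.2 and 17.0 CPM in females and at 28.4, 34.6 and 32.6 CPM in males, a log2 fold change of 0.85 (edgeR adjusted p = 0.0547). For both genes every male library was above every female library, as for 1412 of all 19480 genes. This is the direction of the neutrophil marker sum given above, of which Ly6g is itself a part. Gpihbp1, which carries lipoprotein lipase across capillary endothelium, went the other way, from 7.41, 4.52 and 11.8 CPM in females to 2.01, 1.40 and 3.79 CPM in males (log2 fold change -1.72, edgeR adjusted p = 0.207). DESeq2 called 4 of the 13 higher in males (Ly6c1, Ly6f, Ly6g and Ly6i) and Gpihbp1 lower, beside 226 and 133 of 17252 genes. Ly6d was the most abundant per kilobase at 400 RPKM.

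Other arterial genes gave 0 calls by edgeR among 10 tested, and 5 had an unadjusted p under 0.05, 2 with higher and 3 with lower levels in males, directions in which 5.03% and 4.76% of all genes stood. These counts were 1 and 2 without female replicate 1, male replicate 1 or male replicate 2. They were 1 and 4 without female replicate 2 or male replicate 3, and 2 and 2 without female replicate 3. Scaled to endothelial markers, 2 were higher, where 50.5% of all genes were, and 0 lower, and the median log2 fold change of the list was 0.29, below the 0.74 of all genes. With whole-library scaling that median was -0.41, and it ran from -0.59 (without male replicate 3) to -0.20 (without male replicate 2) with a library left out. Bmx, a kinase of arterial endothelium that neutrophils also express, was at 17.7, 19.6 and 14.8 CPM in females and at 30.3, 32.9 and 25.8 CPM in males without overlap (log2 fold change 0.77, edgeR adjusted p = 0.108, DESeq2 adjusted p = 0.00181). Cxcr4, the receptor of CXCL12 found on many marrow leukocytes and the most abundant of the list at 93.9 RPKM, was the other gene with a higher level in males at an unadjusted p under 0.05. Dll4, the arterial Notch ligand, picked out here by its values, went the opposite way, at 2.43, 1.55 and 3.17 CPM in females and 1.23, 0.812 and 0.780 CPM in males. Its libraries were separate, as for 7.29% of all genes in that direction (log2 fold change -1.34, edgeR adjusted p = 0.259, DESeq2 adjusted p = 0.0482). Of the list, 2 genes were separate with higher and 3 with lower levels in males, beside 1412 and 1420 of all 19480 genes. DESeq2 called 1 higher and 1 lower, beside 226 and 133 of 17252 genes. Nrp1, a co-receptor for VEGF and semaphorins, and Fbln5, an elastic fibre protein, had log2 fold changes of -0.51 and -0.72 with edgeR adjusted p of 0.284 and 0.425.

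Other venous genes all had negative log2 fold changes with whole-library scaling, 10 of 10 with a median of -0.65, beside -0.00 for all genes. Scaled to endothelial markers 4 of 10 were negative with a median of 0.11, beside 0.74 for all genes. With either scaling 0 of the 10 stood above the median of all genes. Of the 10, 6 had an unadjusted edgeR p under 0.05 in the direction of 4.76% of all genes, and the libraries of 3 did not overlap, beside 7.29% of all genes. The count of 6 was 1 without female replicate 1, 3 without female replicate 3 and 4 without male replicate 1 or male replicate 2, and 1 of the 10 turned positive without female replicate 3 or male replicate 1. After adjustment edgeR called 0 of them and DESeq2 0. Flt4, the VEGF-C receptor of venous and lymphatic endothelium, was at 27.5, 10.97 and 25.0 CPM in females and at 7.54, 3.19 and 12.6 CPM in males. Male replicate 3 was above female replicate 2, and the log2 fold change was -1.44 (edgeR adjusted p = 0.383). Aplnr, the apelin receptor, and Nrp2, a co-receptor for VEGF-C, were at log2 fold changes of -1.11 and -0.71 (edgeR adjusted p = 0.383 and 0.353). Vcam1, the adhesion molecule that marrow macrophages and stroma also express, was the most abundant at 113 RPKM and had a log2 fold change of -0.39 (edgeR adjusted p = 0.441).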

How the data were processed

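RNA from BECs was measured in 6 libraries, for which the authors deposited 1 table of raw read counts per gene that had not been normalised or pooled. The submitters' processing notes name TopHat2 2.0.11, featureCounts and the mouse builds mm9 and NCBIM37, whereas the study's methods name another aligner and GRCm39, so GENCODE M39 positions and lengths on GRCm39 serve only to identify genes and to scale levels. Of 37991 identifiers, 6918 (18.2%) had no match in that annotation. Labels and methods also differ on read length, kit and instrument, and strand use in counting is not given in the sources used here. No column of values was left out (0 not used).

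Counts were tested with edgeR 4.0.16 in R 4.3.3 (filterByExpr, TMM, robust quasi-likelihood test, Benjamini-Hochberg over 19480 genes, adjusted p under 0.05), males over females, and with DESeq2 1.42.0 as an alternative. The scripts were tested on simulated data. All libraries differed from each other by more than sampling noise. Reads carried no molecular identifiers named in the labels, so intervals and floors cover counting error only.

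The members and gene lists were chosen with earlier results of these data known. Named genes were all members, genes of the family lists called with or without the replicate number in the model, the most abundant gene of each list per kilobase, the 3 nearest patterns to Efnb2 and Nr2f2 and the defining markers of each cell type. Flrt2, Dll4, Ephb6, Epha8, Ly6f and Ly6m were named after their values were seen. Alternatives were other normalisations, filters, tests and lengths, scaling to endothelial markers, the replicate number as a block and leaving out each library.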

Additional observations from a re-analysis of the deposited data

How the results depend on the processing

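With 3 libraries a sex, intervals of the members are wide, and 13 to 59 reads per library limit Gja4 and Gja5. Of the members' log2 fold changes under alternatives other than leaving out a library, 78 kept their sign and their side of the threshold, 10 turned the sign and 2 gained a call. Without 1 library 54 kept both and 6 turned the sign.

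From 8 genes called, total counts alone gave 14, no filter on low counts 98, DESeq2 359, scaling to endothelial markers 4797, the replicate block 428 and DESeq2 with the replicate block 721, and the range without 1 library was 5 (without female replicate 2) to 96 (without male replicate 3). Of the members, 0 were called without any 1 library, and 1 with endothelial scaling (Ly6a, 0.88, adjusted p = 0.040, with 0.827 the highest of the alternatives that keep all libraries) and with DESeq2 and the replicate block (Ephb4, -0.78, adjusted p = 0.0403, with 0.824 the highest, chosen after seeing the data). Of the other family and identity genes, from 0 called, no filter gave 3, DESeq2 9, endothelial scaling 19, the replicate block 12 and DESeq2 with the replicate block 16, with 0 to 3 without 1 library.

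Scaling to endothelial markers turned the log2 fold changes of Efnb2 (0.46), Efnb1 (0.39), Efna1 (0.15), Nr2f2 (0.38), Gja1 (0.40), Gja5 (0.65) and Unc5b (0.65). Leaving out genes over 1% of a library turned Gja5 (0.0046), and the replicate block turned Unc5b (0.017, and 0.028 in DESeq2). Without 1 library the ranges were -0.66 to 0.065 for Efnb2, -0.32 to 0.19 for Gja5 and -0.55 to 0.32 for Unc5b, and with the sign kept -0.60 to -0.20 for Efnb1, -1.08 to -0.35 for Efna1, -1.196 to -0.57 for Ephb4, -0.70 to -0.16 for Nr2f2, -0.71 to -0.12 for Gja1, -1.56 to -0.61 for Gja4 and 0.04 to 0.34 for Ly6a. The cause was not tested.

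The replicate numbers share no stated origin, so the block was not taken as a pairing in the main fit. Correlations of deviations from the group means across genes were 0.248, 0.0613 and 0.361 for the same numbers. For different numbers they ran from -0.335 to 0.162, the latter for male replicate 2 with female replicate 1. Whether the libraries were paired was not tested. The 12 family and identity genes called by edgeR with the block were Nrp2, Flt4, Fbln5, Ly6i, Ly6c1, Ly6c2, Ly6g, Gpihbp1, Aplnr, Nrp1, Robo4 and Bmx.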
